A study of Arabidopsis thaliana with 8 samples.

Results

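The genes described here are the 36 that carry tetrapyrrole, chlorophyll and heme synthesis in Arabidopsis thaliana, out of 38088 gene identifiers measured. They were taken by name from a fixed list of enzymes and regulators. The list holds 12 genes of the common steps from glutamyl-tRNA to protoporphyrin IX, 15 genes of the chlorophyll branch, 7 genes of the heme and bilin branch, and the regulators FLU and GBP. No measured value of these libraries entered the rule, but the members were chosen with earlier results of these data known. The RNA came from rosette leaves of ecotype Col-0, with 4 groups of 2 libraries. All plants had grown for 12 d on soil and then for 10 d in hydroponics with 1 µM copper sulfate before a treatment of 10 d. Double-deficient plants then received neither iron (FeEDTA left out) nor copper sulfate, and were given bathocuproine disulfonate, a chelator of copper, at 10 µM. Iron-deficient plants received no FeEDTA and kept the copper sulfate, without chelator. Copper-deficient plants kept the FeEDTA, received no copper sulfate and were given the chelator at 10 µM. Control plants kept the full medium. The copper treatment therefore joins the loss of copper to the presence of a chelator, and the effects of each cannot be told apart. The labels also give a plant age of 20 d, which is less than the sum of these periods and was not resolved here. The labels do not say whether libraries of 1 group are separate cultures, so the p-values measure the spread between these libraries, which may be technical.

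Tetrapyrroles are ring molecules made in the plastid. Glutamyl-tRNA reductase (HEMA) and glutamate-1-semialdehyde aminotransferase (GSA) form 5-aminolevulinic acid, and the following enzymes assemble and oxidise the ring up to protoporphyrin IX. Insertion of magnesium by magnesium chelatase leads to chlorophyll, and insertion of iron by ferrochelatase leads to heme. Heme oxygenases open heme to biliverdin, from which HY2 makes the chromophore of the phytochromes. Free intermediates are photosensitisers, and the pathway is known to be held under feedback in leaves. Iron is both the metal of heme and a cofactor of CRD1, the di-iron subunit of the cyclase that closes the isocyclic ring of chlorophyll.

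Relative depth, read from the width of the bounds that accompany each value, ranged from 0.733 to 1 of the deepest library. The deposited 95% bounds of the members' values spanned a median of ±7.10% of the value (range 2.82 to 75.6%, 270 values of at least 1 FPKM, fragments per kilobase of transcript, scaled to the number of mapped fragments). Among the label checks, BHLH39, a regulator of iron uptake, stood at 346 to 402 FPKM in the 4 libraries without iron and 0.118 to 0.338 FPKM in the 4 with iron. FER1, a plastid ferritin, stood at 6.36 to 8.64 FPKM without iron and 54.3 to 92.4 FPKM with iron. The copper markers separated less. FSD1, a superoxide dismutase gene, had 734 and 711 FPKM in copper deficiency against 400 and 256 FPKM in controls. Limma did not call this difference (adjusted p = 0.946). Without iron FSD1 stood at 0.327 to 1.83 FPKM, and its difference between double and iron deficiency was not called (0.614). CSD2, a copper/zinc superoxide dismutase, had 711 and 738 FPKM in double deficiency against 668 and 789 FPKM in iron deficiency, and 322 and 355 FPKM in copper deficiency against 595 and 847 FPKM in controls, and limma called neither difference (adjusted p = 1 and 0.301). Several features of the libraries moved with iron. Ribosomal RNA took 1.66 to 5.94% of FPKM without iron and 0.0760 to 0.661% with iron. The summed FPKM of 4 mesophyll and leaf markers was 18992 to 23591 without iron and 41838 to 44126 with iron. Of these, LHCB1.3 stood at 6507 to 8596 FPKM without iron and 22922 to 24809 FPKM with iron. LHCB1.3, CA1 and GDCH fell in double against copper deficiency and in iron deficiency against control. RBCS1A was called in neither (limma adjusted p = 0.407 and 0.119). The summed FPKM of 3 markers of dividing cells was 47.6 to 60.5 without iron and 6.21 to 20.8 with iron. KNOLLE was listed at 0 in 3 of the libraries with iron. The sums of the root, phloem, epidermis and flower markers overlapped. That of 3 root markers was 20.7 to 44.1 without iron and 4.77 to 24.0 with iron, with EXP7 listed at 0 in all 8 libraries. For 2 phloem markers it was 47.2 to 93.7 against 71.8 to 85.3, and for 2 epidermis markers 69.7 to 97.7 against 35.4 to 92.7. These sums hide calls of single genes. In double against copper deficiency SUC2 (phloem) fell, and APL (phloem), ATML1 (epidermis) and PYK10 (root) rose. In iron deficiency against control APL and ATML1 rose. PDF1, the other epidermis marker, was called in neither comparison. The sum of 5 guard-cell markers did not overlap, at 1100 to 1624 without iron and 1712 to 2195 with iron. Most of this sum was TGG1, at 1024 to 1567 FPKM without iron and 1591 to 2115 FPKM with iron. In double against copper deficiency 1 of these 5 fell (TGG1) and 1 rose (FAMA). In iron deficiency against control 0 fell and 2 rose (MYB60 and FAMA). Over all genes tested, 6.40 and 6.85% fell and 39.4 and 27.2% rose in these comparisons. The sum of 3 flower markers stayed at or below 1.39. The copper-deficient library 2 stood apart with 0.278% of FPKM from the chloroplast genome, against 5.83 to 11.2% in the other 7. The part of these features in the results on the members was not tested, and in whole leaves fewer cells of a type and less RNA per cell cannot be told apart.

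In control leaves the genes of the chlorophyll branch led by level. CRD1 averaged 1820 FPKM and CHLP, which reduces the geranylgeranyl tail to phytyl, averaged 1014 FPKM, followed by CHLH, the large subunit of magnesium chelatase, at 545 FPKM and PORB at 488 FPKM (means of 2 libraries). PORA and HO4 were the lowest listed above 0, at 2.89 and 0.947 FPKM. HEMG2, a second protoporphyrinogen oxidase gene that overlaps AT5G14210 by 228 bases on the same strand, was listed at 0 in all 8 libraries. Of the 36 members, 33 stood at 1 FPKM or more in every library. PORA and HO4 passed the filter of 1 FPKM in 2 libraries only through the libraries with iron, so 35 members were tested. Libraries were unstranded, and many members overlap a neighbour, the largest overlap being 946 bases between GUN4 and AT3G59410 on the opposite strand.

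**Figure D1:**
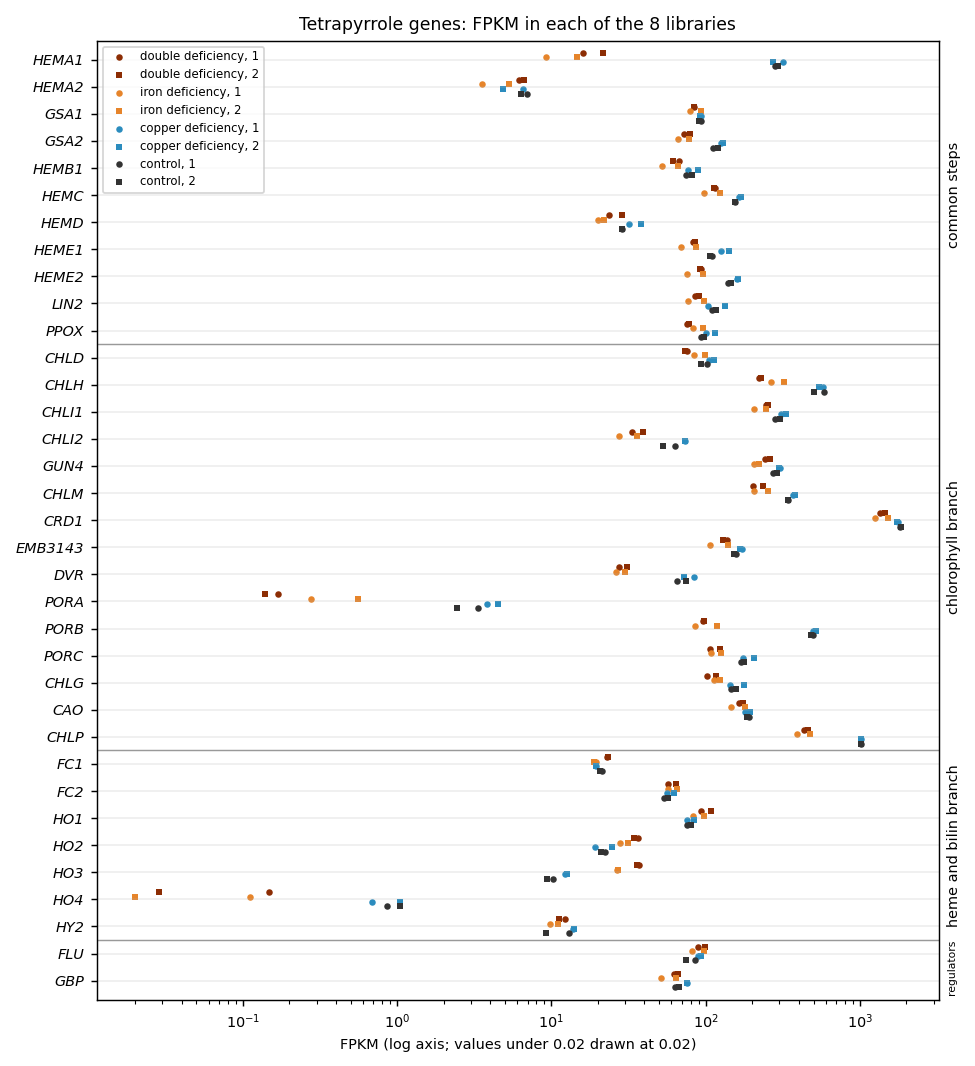
FPKM (log axis) of the 35 members above 0 somewhere, by library, with double deficiency, iron deficiency, copper deficiency and control from top to bottom within each gene. HEMA1, HO4, PORA and PORB show the widest gaps between the 4 libraries without iron and the 4 with iron, HO4 at levels near or below 1 FPKM. HEMG2, listed at 0 throughout, is not drawn.

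Transcripts of much of the pathway were lower without iron, in each of 2 comparisons that share no library. Log2(FPKM + 1) was fitted with limma across 19170 genes, and a gene was called when its Benjamini-Hochberg adjusted p was under 0.05. The spread was estimated from all 8 libraries together, so the calls of the 2 comparisons are not independent of each other. In double deficiency against copper deficiency, 20 of 35 tested members fell, where 6.40% of all genes tested fell, and 2 rose, where 39.4% of all genes rose. In iron deficiency against control, 17 of 35 fell, where 6.85% of all genes fell, and 1 rose, where 27.2% of all genes rose. These counts include PORA and HO4, which passed the filter only through the libraries with iron. Without them the falls numbered 18 and 15 of 33. The 17 members that fell in iron deficiency were 100% of that list and 85% of the 20 that fell in double against copper deficiency. Over all genes the same overlap was 839 of 1227 falls in double against copper deficiency and of 1314 in iron deficiency against control. The median log2 difference of the tested members, relative to the median of all genes tested, was -0.83 in double against copper deficiency and -0.66 in iron deficiency against control. The all-gene medians themselves were 0.41 and 0.27. Double deficiency against control, which shares its control libraries with the iron comparison, gave 15 falls against 5.99% of all genes and 3 rises against 39.2%, with a median of -0.77 relative to the all-gene median of 0.41. The falls were HEMA1, GSA2, HEMC, HEME2, CHLD, CHLH, CHLI2, CHLM, DVR, PORA, PORB, PORC, CHLG, CHLP and HO4. The rises were the heme oxygenase genes HO1, HO2 and HO3. Without PORA and HO4 the falls in this comparison numbered 13 of 33.

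These counts depended on single libraries and on the scaling. The falls in iron deficiency against control numbered 9 without control library 1, 9 without control library 2 and 11 without iron-deficient library 1. Those in double against copper deficiency numbered 13 without either double-deficient library, and those in double deficiency against control numbered 8 without double-deficient library 1. The calls that stood whichever library was left out were HEMA1, GSA2, HEME2, CHLH, CHLI2, DVR, PORA, PORB, CHLP and HO3 in iron deficiency against control. In double against copper deficiency the same genes stood, with HEME1, CHLM and PORC in addition. No scaling between libraries was applied in the main fit, where 1314 genes fell and 5218 rose in iron deficiency against control. Median-ratio scaling, which sets the typical gene equal, gave 2764 falls and 2783 rises over all genes and 29 falls and 1 rise among the members, and quantile scaling gave 2694 and 2652 over all genes and 24 and 1 among the members. For double against copper deficiency, 1227 genes fell and 7552 rose unscaled, 3112 and 3202 did with median-ratio scaling, and 3529 and 3047 with quantile scaling, where the members gave 30 and 28 falls. For double deficiency against control the unscaled 1148 falls and 7506 rises became 2893 and 3180 with median-ratio and 3307 and 2990 with quantile scaling, and the members' falls became 28 in each. Scaling to nuclear coding transcripts moved the counts the other way. It gave 970 falls and 7884 rises over all genes in iron deficiency against control, 1043 and 9084 in double against copper deficiency, and 992 and 9127 in double deficiency against control. The members then gave 12, 17 and 14 falls in that order of comparisons, and 4 rises in each. It ended the calls of HEMC, HEMD, HEME1, CHLI1 and GUN4 in iron deficiency against control, those of HEMD, CHLI1 and GUN4 in double against copper deficiency, and that of CHLD in double deficiency against control. Under all 4 scalings tried, 17 members fell in double against copper deficiency, 14 in double deficiency against control and 12 in iron deficiency against control. PORA and HO4, which passed the filter only through libraries with iron, are among these falls in each comparison. HO3 rose in each. GSA1, HEMB1, LIN2, CRD1, EMB3143, CAO and GBP, which were not called unscaled, fell in both comparisons with median-ratio scaling.

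**Figure D2:**
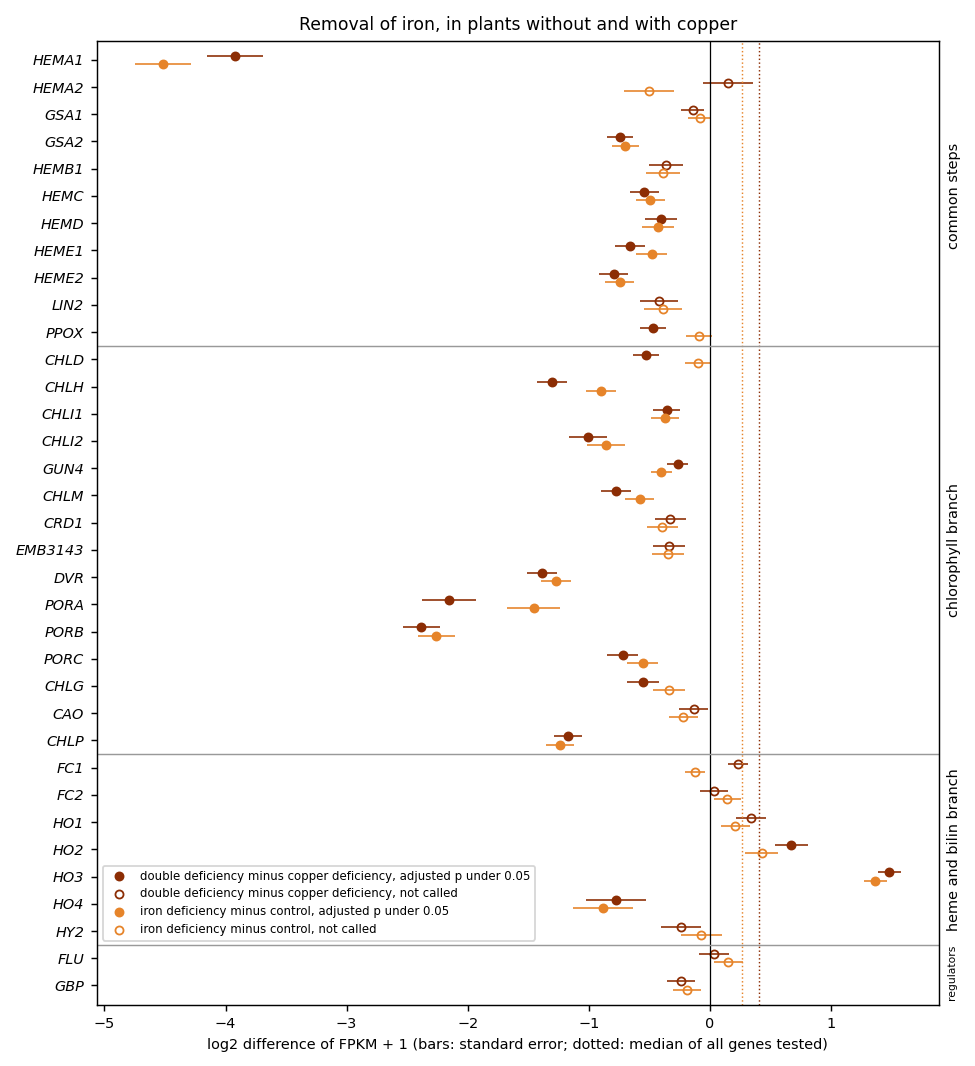
Log2 difference of FPKM + 1 (horizontal axis, points with standard error bars) on removal of iron for the 35 tested members, in copper-starved plants (dark, upper) and copper-supplied plants (light, lower). Filled points passed an adjusted p of 0.05, dotted lines mark the medians of all genes (0.41 and 0.27), and HEMA1, PORB and PORA lie farthest to the left while HO3 lies farthest to the right.

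Among the common steps, the entry enzyme changed most. HEMA1 (AT1G58290, chromosome 1, bases 21623700 to 21626402, minus strand, coordinates as deposited and identical in TAIR10.1) had 16.0 and 21.6 FPKM in double deficiency, 9.18 and 14.7 FPKM in iron deficiency, 318 and 274 FPKM in copper deficiency and 283 and 294 FPKM in controls. The libraries without iron lay far below those with iron, with no overlap. The log2 difference was -3.92 ± 0.23 (SE) in double against copper deficiency (limma adjusted p = 0.000134) and -4.52 ± 0.23 in iron deficiency against control (0.000100), a 22.9-fold lower value of FPKM + 1 in iron deficiency. HEMA2, its paralog, had 6.18 and 6.60 FPKM in double deficiency, 3.55 and 5.35 FPKM in iron deficiency, 6.58 and 4.88 FPKM in copper deficiency and 6.94 and 6.31 FPKM in controls. The groups overlapped, and HEMA2 was not called in double against copper deficiency (0.15 ± 0.21, adjusted p = 0.596) or in iron deficiency against control (-0.50 ± 0.21, 0.109). HEMA1 thus made up 72.1 to 76.6% of the FPKM of the HEMA pair without iron and 97.6 to 98.3% with iron.

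The bases just upstream of the HEMA1 start are shown because HEMA1 had the largest difference of any member on the log2(FPKM + 1) scale. With a pseudocount of 0.1, PORA, whose window is given further on, had the larger difference in double against copper deficiency (-4.07, against -3.99 for HEMA1) and HEMA1 had it in iron deficiency against control (-2.57 for PORA, against -4.62). The window covers 250 bases before the annotated start, from the RefSeq assembly TAIR10.1, chr1:21626403-21626652 on the minus strand, printed 5′ to 3′ towards the start.
HEMA1: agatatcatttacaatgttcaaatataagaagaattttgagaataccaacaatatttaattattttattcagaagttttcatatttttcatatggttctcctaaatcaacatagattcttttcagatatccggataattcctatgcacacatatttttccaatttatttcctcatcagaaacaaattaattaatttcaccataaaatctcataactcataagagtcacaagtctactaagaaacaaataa
Of the 4 motifs searched on both strands of such windows, none occurred in the HEMA1 window. The motifs were the G-box CACGTG, which reads the same on both strands, the GLK-type CCAATC (reverse GATTGG), the evening element AAAATATCT (reverse AGATATTTT) and the I-box GATAAG (reverse CTTATC). They occurred in 13.9, 8.33, 5.56 and 11.1% of the 36 members' windows and in 6.49, 10.2, 2.36 and 12.3% of all 27443 windows of the same length, in the order named.

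The aminotransferase genes were also unequal. GSA2 had 72.3 and 79.2 FPKM in double deficiency, 65.7 and 77.4 FPKM in iron deficiency, 125 and 130 FPKM in copper deficiency and 112 and 121 FPKM in controls. It fell in double against copper deficiency (-0.74 ± 0.11, adjusted p = 0.00271) and in iron deficiency against control (-0.70 ± 0.11, 0.00519). GSA1, the other aminotransferase gene, had 84.0 and 84.1 FPKM in double deficiency, 79.7 and 93.5 FPKM in iron deficiency, 93.7 and 92.0 FPKM in copper deficiency and 93.4 and 89.9 FPKM in controls. The groups overlapped, GSA1 was not called in either comparison (adjusted p = 0.268 and 0.527), and its direction in iron deficiency turned under scaling to nuclear coding transcripts. GSA1 therefore gave 51.5 to 54.8% of the FPKM of the pair without iron and 41.5 to 45.5% with iron.

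Of 7 genes in the middle of the pathway, HEME1, HEME2, HEMC and HEMD fell in both comparisons, PPOX fell in 1, and HEMB1 and LIN2 fell in neither. HEME2, a uroporphyrinogen decarboxylase, had 93.6 and 91.5 FPKM in double deficiency, 75.3 and 95.5 FPKM in iron deficiency, 160 and 163 FPKM in copper deficiency and 140 and 146 FPKM in controls, and fell in both comparisons (-0.80 ± 0.12, adjusted p = 0.00307, and -0.75 ± 0.12, 0.00577). Its paralog HEME1 had 82.8 and 85.4 FPKM in double deficiency, 68.8 and 86.6 FPKM in iron deficiency, 126 and 142 FPKM in copper deficiency and 110 and 106 FPKM in controls. HEME1 fell as well (-0.66 ± 0.13, 0.00733, and -0.48 ± 0.13, 0.0291), the call in iron deficiency being lost without any of 5 of the 8 libraries: both controls, iron-deficient library 1 and both double-deficient libraries. That call was also lost with scaling to nuclear coding transcripts, without a filter on low values and in a fit of the compared groups only. HEMC, the porphobilinogen deaminase, averaged 114 ± 1.20 FPKM in double deficiency, 111 ± 18.9 in iron deficiency, 167 ± 2.98 in copper deficiency and 155 ± 0.325 in controls (SD, n = 2), and fell in both comparisons (adjusted p = 0.0124 and 0.0228). HEMD, the uroporphyrinogen III synthase, fell narrowly in both (-0.40 ± 0.13, 0.0468, and -0.43 ± 0.13, 0.0474). The call of HEMC was lost without either double-deficient library in double against copper deficiency and without either control in iron deficiency against control, where it also ended with scaling to nuclear coding transcripts and in a fit of the compared groups only. That of HEMD was lost in double against copper deficiency without any library other than copper-deficient library 1, and in iron deficiency against control without either control, iron-deficient or double-deficient library. Both calls of HEMD ended with scaling to nuclear coding transcripts, without a filter and without a trend in limma. HEMB1, the aminolevulinic acid dehydratase, and LIN2, the coproporphyrinogen oxidase, lay below the iron-supplied libraries in all 4 libraries without iron but were not called (HEMB1 adjusted p = 0.0780 and 0.0757, LIN2 0.0702 and 0.104). PPOX, the protoporphyrinogen oxidase, averaged 77.1 ± 1.32 FPKM in double deficiency, 89.6 ± 8.81 in iron deficiency, 107 ± 10.1 in copper deficiency and 95.1 ± 3.31 in controls. It fell in double against copper deficiency (-0.47 ± 0.11, 0.0135), a call lost without copper-deficient library 2 or either double-deficient library, and was not called in iron deficiency against control (-0.09 ± 0.11, 0.555). Summed over the 12 genes of the common steps, FPKM was 722 and 740 in double deficiency, 632 and 778 in iron deficiency, 1306 and 1350 in copper deficiency and 1206 and 1243 in controls.

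**Figure D3:**
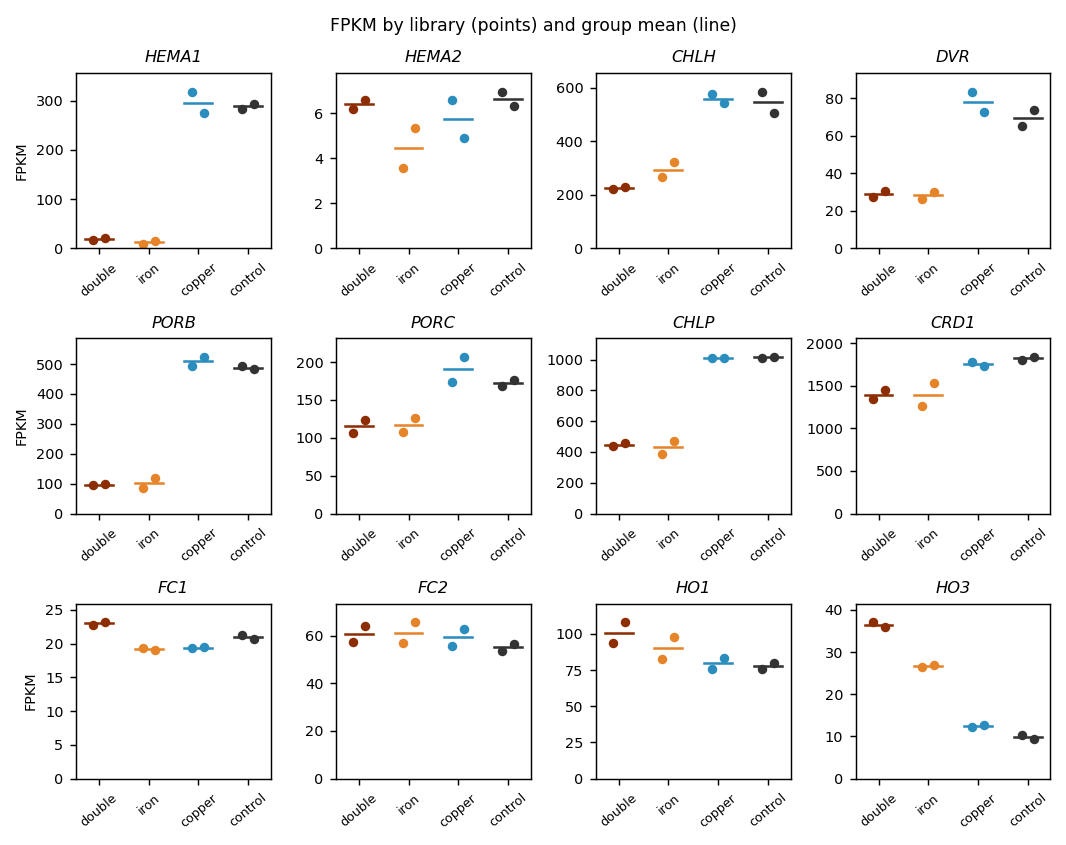
FPKM on linear axes from 0 for 12 members, with points for the libraries and a line for the mean of each group, in the order double, iron and copper deficiency and control. HEMA1, CHLH, DVR, PORB and CHLP lie lower in every library without iron, HO3 lies higher, and HEMA2, FC1 and FC2 overlap.

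In the chlorophyll branch 12 of 15 members fell in double against copper deficiency and 10 of 15 in iron deficiency against control, PORA among them in both, and none rose. At the branch point, CHLH had 223 and 229 FPKM in double deficiency, 265 and 320 FPKM in iron deficiency, 576 and 541 FPKM in copper deficiency and 583 and 507 FPKM in controls. FPKM + 1 was 2.47-fold and 1.86-fold lower (log2 SE 0.12 in each, adjusted p = 0.000677 and 0.00376), and both double-deficient libraries lay below both iron-deficient ones. CHLI1, the main ATPase subunit of magnesium chelatase, had 245 and 255 FPKM in double deficiency, 205 and 247 FPKM in iron deficiency, 310 and 332 FPKM in copper deficiency and 280 and 304 FPKM in controls. The falls were small (-0.36 ± 0.11, 0.0420, and -0.37 ± 0.11, 0.0477). CHLI1 lost its call in double against copper deficiency without any control, copper-deficient or double-deficient library. In iron deficiency against control it was lost without any library other than iron-deficient library 2. Both calls of CHLI1 ended with scaling to nuclear coding transcripts, without a filter and without a trend. CHLI2, the second ATPase subunit gene, had 33.2 and 39.0 FPKM in double deficiency, 27.6 and 35.9 FPKM in iron deficiency, 73.5 and 72.9 FPKM in copper deficiency and 63.2 and 53.1 FPKM in controls. It fell more (-1.01 ± 0.16, 0.00348, and -0.86 ± 0.16, 0.00888), and its share of the CHLI pair was 11.9 to 13.3% without iron and 14.9 to 19.2% with iron. CHLD, the remaining subunit, averaged 74.8 ± 1.37 FPKM in double deficiency, 91.6 ± 11.2 in iron deficiency, 109 ± 5.53 in copper deficiency and 97.9 ± 5.81 in controls. It fell in double against copper deficiency (-0.53 ± 0.11, 0.00927), a call lost without double-deficient library 2 (adjusted p = 0.0540), and not in iron deficiency against control (-0.10 ± 0.11, 0.518).

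GUN4, which binds the porphyrin and stimulates magnesium chelatase, had 242 and 260 FPKM in double deficiency, 204 and 221 FPKM in iron deficiency, 304 and 300 FPKM in copper deficiency and 274 and 289 FPKM in controls. All 4 libraries without iron lay below the others, and the falls were called narrowly (-0.27 ± 0.09, 0.0451, and -0.40 ± 0.09, 0.0153). The first of these calls was lost without any control, copper-deficient or double-deficient library, and the second without either control or iron-deficient library 1. Both ended with scaling to nuclear coding transcripts and in a fit of the compared groups only. CHLM, the methyltransferase after magnesium chelatase, had 204 and 234 FPKM in double deficiency, 206 and 252 FPKM in iron deficiency, 370 and 379 FPKM in copper deficiency and 340 and 344 FPKM in controls. It fell in both comparisons (-0.77 ± 0.12, 0.00375, and -0.58 ± 0.12, 0.0144), the second call being lost without either control and in a fit of the compared groups only. CRD1, the most abundant member, averaged 1395 ± 71.9 FPKM in double deficiency, 1393 ± 191 in iron deficiency, 1752 ± 33.6 in copper deficiency and 1820 ± 19.3 in controls (SD, n = 2). All 4 libraries without iron lay below the other 4, but the differences missed the threshold (-0.33 ± 0.13, 0.0791, and -0.39 ± 0.13, 0.0577), and under quantile scaling the direction in double against copper deficiency turned (0.02). EMB3143, annotated as a YCF54 product and needed by the cyclase, was likewise lower in all 4 and not called (adjusted p = 0.0773 and 0.0853).

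DVR, which reduces the 8-vinyl group, had 27.5 and 30.8 FPKM in double deficiency, 26.3 and 30.1 FPKM in iron deficiency, 83.4 and 72.8 FPKM in copper deficiency and 65.3 and 74.0 FPKM in controls. It fell by 1.39 ± 0.12 and 1.28 ± 0.12 on the log2 scale (adjusted p = 0.000543 and 0.00116). CHLP had 437 and 459 FPKM in double deficiency, 390 and 472 FPKM in iron deficiency, 1013 and 1013 FPKM in copper deficiency and 1013 and 1016 FPKM in controls, and fell by 1.18 ± 0.11 and 1.24 ± 0.11 (0.000724 and 0.000984). Both genes therefore stood at less than 0.5 of their iron-supplied level in every library without iron. CHLG, the chlorophyll synthase that joins the phytyl tail, averaged 109 ± 11.3 FPKM in double deficiency, 119 ± 7.33 in iron deficiency, 161 ± 23.4 in copper deficiency and 151 ± 7.78 in controls. It fell in double against copper deficiency (-0.55 ± 0.13, 0.0160) and was not called in iron deficiency against control (-0.34 ± 0.13, 0.0924), and its call was lost without copper-deficient library 2 or double-deficient library 1 and in a fit of the compared groups only. CAO, which makes chlorophyll b, averaged 170 ± 7.48 FPKM in double deficiency, 163 ± 24.1 in iron deficiency, 187 ± 9.41 in copper deficiency and 188 ± 5.18 in controls and was called in neither comparison (adjusted p = 0.383 and 0.197). Summed over the 15 genes, FPKM was 3438 and 3670 in double deficiency, 3226 and 3895 in iron deficiency, 5780 and 5823 in copper deficiency and 5687 and 5670 in controls.

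The protochlorophyllide oxidoreductases, the light-dependent enzymes near the end of the branch, differed in the size of their changes. PORB (AT4G27440, chromosome 4, bases 13725546 to 13727440, plus strand) had 95.8 and 97.7 FPKM in double deficiency, 85.6 and 119 FPKM in iron deficiency, 494 and 523 FPKM in copper deficiency and 493 and 483 FPKM in controls. It fell by 2.38 ± 0.15 in double against copper deficiency (adjusted p = 0.000177) and by 2.26 ± 0.15 in iron deficiency against control (0.000300), with no overlap. PORC (AT1G03630) had 107 and 123 FPKM in double deficiency, 108 and 126 FPKM in iron deficiency, 174 and 206 FPKM in copper deficiency and 169 and 176 FPKM in controls. Its fall was smaller (-0.72 ± 0.13, 0.00598, and -0.56 ± 0.13, 0.0201), and the second call was lost without either control or iron-deficient library 1. PORA (AT5G54190, chromosome 5, bases 21990864 to 21992814, minus strand), best known from dark-grown seedlings, had 0.168 and 0.138 FPKM in double deficiency, 0.276 and 0.556 FPKM in iron deficiency, 3.81 and 4.49 FPKM in copper deficiency and 3.33 and 2.45 FPKM in controls. The groups with and without iron did not overlap, and the differences were -2.16 ± 0.22 and -1.46 ± 0.22 on the log2(FPKM + 1) scale, which understates changes at such low levels (-4.07 and -2.57 with a pseudocount of 0.1). Since the libraries with iron alone carried PORA past the filter of 1 FPKM, its test is taken from the fit without that filter, where it fell with an adjusted p of 0.00272 and 0.0125. PORB and PORC exchanged rank: PORB gave 44.1 to 48.5% of the summed POR FPKM without iron and 71.3 to 74.1% with iron, and PORC gave 51.3 to 55.7% without iron and 25.4 to 28.1% with iron.

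The upstream windows of PORA and PORB are shown because these 2 members alone held the evening element among the 36. Both are from TAIR10.1, 5′ to 3′ towards the start, with matched motifs in capitals. PORA covers chr5:21992815-21993064 on the minus strand, with AAAATATCT ending 172 and CTTATC ending 89 bases before the start. PORB covers chr4:13725360-13725545 on the plus strand, the 186 bases that the neighbour AT4G27435 does not cover, with AAAATATCT ending 134 and CCAATC ending 17 bases before the start.
PORA: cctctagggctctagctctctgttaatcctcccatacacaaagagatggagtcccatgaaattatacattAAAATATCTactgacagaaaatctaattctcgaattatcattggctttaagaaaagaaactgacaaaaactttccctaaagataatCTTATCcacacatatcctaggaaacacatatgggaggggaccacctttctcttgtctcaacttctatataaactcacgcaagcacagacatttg
PORB: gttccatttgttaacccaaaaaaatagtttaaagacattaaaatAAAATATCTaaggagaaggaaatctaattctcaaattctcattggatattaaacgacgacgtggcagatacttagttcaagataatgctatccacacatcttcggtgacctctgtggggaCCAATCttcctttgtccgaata
A match to these letters is a description of the sequence, and 2.36% of all windows hold the evening element.

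**Figure D4:**
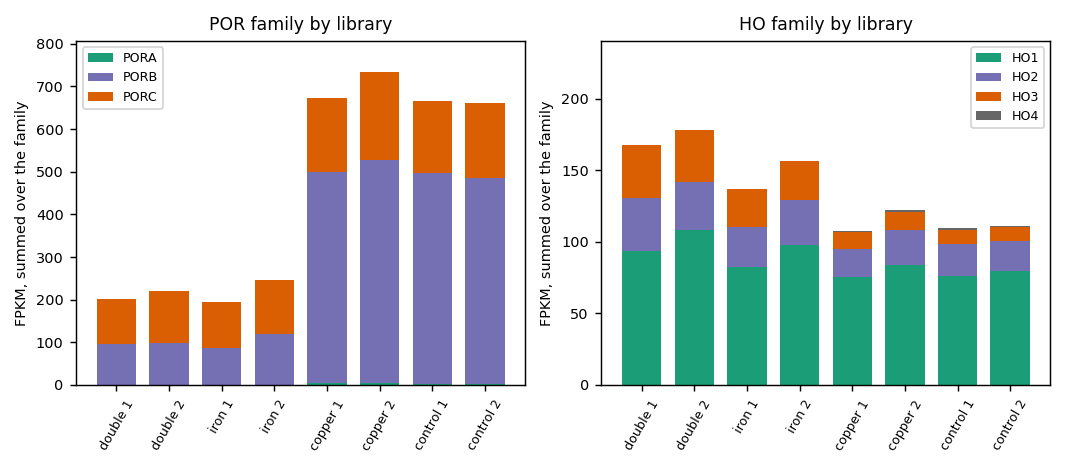
FPKM summed over the protochlorophyllide oxidoreductase genes (left) and the heme oxygenase genes (right) in each library, stacked by gene on axes from 0. PORB shrinks more than PORC in the 4 libraries without iron, HO3 widens there, and PORA and HO4 are too low to see.

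The heme and bilin branch held few calls. HO4 apart, none of its 7 members fell in either comparison, and 2 rose in double against copper deficiency, where 39.4% of all genes rose, and 1 in iron deficiency against control, where 27.2% did. Neither count of rises stands above that background, and 5 of the 7 lay below the median of all genes in both comparisons. The ferrochelatases, which insert iron into protoporphyrin IX, were not called. FC1 had 22.8 and 23.2 FPKM in double deficiency, 19.4 and 19.0 FPKM in iron deficiency, 19.4 and 19.4 FPKM in copper deficiency and 21.3 and 20.8 FPKM in controls. The differences were 0.23 ± 0.08 in double against copper deficiency (adjusted p = 0.0578, 95% interval 0.04 to 0.43) and -0.13 ± 0.08 in iron deficiency against control (0.275, -0.32 to 0.07). FC2, the ferrochelatase best known from green tissue, had 57.4 and 63.9 FPKM in double deficiency, 56.7 and 65.5 FPKM in iron deficiency, 55.7 and 62.7 FPKM in copper deficiency and 53.6 and 56.7 FPKM in controls. Its differences were 0.03 ± 0.11 (0.832, -0.24 to 0.31) and 0.14 ± 0.11 (0.368, -0.13 to 0.42). Both changed sign between scalings in both comparisons. With median-ratio scaling FC1 fell in iron deficiency against control and FC2 fell in double against copper deficiency, and with scaling to nuclear coding transcripts FC1 rose in double against copper deficiency and FC2 in iron deficiency against control.

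Among the heme oxygenases, HO3 (AT1G69720, chromosome 1, bases 26226731 to 26228580, plus strand) was the member with the largest rise. It had 37.04 and 36.03 FPKM in double deficiency, 26.6 and 27.0 FPKM in iron deficiency, 12.3 and 12.6 FPKM in copper deficiency and 10.3 and 9.30 FPKM in controls. The 4 groups did not overlap. HO3 rose by 1.48 ± 0.09 in double against copper deficiency (adjusted p = 0.000157), by 1.37 ± 0.09 in iron deficiency against control (0.000291) and by 1.80 ± 0.09 in double deficiency against control (8.31e-05), under all 18 alternatives tried. HO2, annotated as unable to degrade heme, had 36.5 and 34.1 FPKM in double deficiency, 27.8 and 31.2 FPKM in iron deficiency, 19.2 and 24.8 FPKM in copper deficiency and 22.4 and 21.0 FPKM in controls. It rose in double against copper deficiency (0.67 ± 0.14, 0.00954) but was not called in iron deficiency against control (0.43 ± 0.14, 0.0567), and the call was lost without double-deficient library 1 and under median-ratio and quantile scaling. HO1, the main heme oxygenase for phytochrome chromophore, had 93.9 and 108 FPKM in double deficiency, 82.7 and 97.9 FPKM in iron deficiency, 75.5 and 83.6 FPKM in copper deficiency and 75.8 and 79.7 FPKM in controls. The groups overlapped and HO1 was called in neither comparison (0.34 ± 0.12, 0.0609, and 0.21 ± 0.12, 0.228), with a sign that turned under median-ratio scaling. In double deficiency against control HO1 rose narrowly (0.37 ± 0.12, 0.0472), a call lost without any control, copper-deficient or double-deficient library, under quantile scaling, without a filter and without a trend. Under median-ratio scaling its sign turned there too. HO2 rose in the same comparison by 0.68 ± 0.14 (0.00931), a call lost without control library 2 or double-deficient library 1 and under median-ratio and quantile scaling. HO4 had 0.147 and 0.0285 FPKM in double deficiency, 0.112 FPKM in iron deficiency 1 and a listed 0 in iron deficiency 2, 0.683 and 1.05 FPKM in copper deficiency and 0.856 and 1.04 FPKM in controls. The differences were -0.77 ± 0.25 and -0.88 ± 0.25, at levels near or below 1 FPKM. HO4 too passed the filter only through libraries with iron, and in the fit without that filter it fell with an adjusted p of 0.0137 and 0.0131. The calls of the main fit were lost with the replicate block, without either library of each of the groups compared and, in double against copper deficiency, without either control or with a pseudocount of 0.1. HO3 gave 17.3 to 22.1% of summed heme oxygenase FPKM without iron and 8.37 to 11.4% with iron. HO1 gave 56.0 to 62.7% without iron and 68.5 to 71.8% with iron. HY2, the phytochromobilin synthase, averaged 11.7 ± 0.753 FPKM in double deficiency, 10.4 ± 0.933 in iron deficiency, 13.9 ± 0.172 in copper deficiency and 11.1 ± 2.67 in controls and was not called (adjusted p = 0.287 and 0.774). Summed over the 7 genes, FPKM was 260 and 276 in double deficiency, 223 and 252 in iron deficiency, 197 and 218 in copper deficiency and 197 and 198 in controls.

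The regulators of the entry step did not pass the test. FLU, which restrains aminolevulinic acid synthesis through glutamyl-tRNA reductase in the dark, had 88.8 and 98.4 FPKM in double deficiency, 81.6 and 96.9 FPKM in iron deficiency, 88.9 and 93.9 FPKM in copper deficiency and 85.5 and 74.7 FPKM in controls. The differences were 0.03 ± 0.12 (adjusted p = 0.851, 95% interval -0.26 to 0.32) and 0.15 ± 0.12 (0.374, -0.14 to 0.44), with a sign that turned under median-ratio scaling, where FLU fell in double against copper deficiency. GBP, which binds glutamyl-tRNA reductase at the membrane, had 62.2 and 66.0 FPKM in double deficiency, 51.3 and 63.9 FPKM in iron deficiency, 76.0 and 75.7 FPKM in copper deficiency and 63.4 and 67.3 FPKM in controls. It was not called either (-0.24 ± 0.12, 0.138, and -0.19 ± 0.12, 0.259). Both regulators therefore overlapped between libraries with and without iron.

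By order alone, 22 of the 35 members above 0 lay lower in all 4 libraries without iron than in all 4 with iron, where 8.00% of the genes tested did. HO2 and HO3 lay higher in all 4, where 39.8% of the genes tested did. The 22 include PORA and HO4, which passed the filter of 1 FPKM only through libraries with iron. The order of these 2 was thus partly set by the filter. The log2 differences of the 35 tested members in the 2 comparisons had the same sign for 33 and a Pearson r of 0.96 (0.95 without HEMA1), given as a description, since the libraries of iron-starved plants share features such as their ribosomal RNA. The iron-deficient libraries agreed least with each other: iron-deficient library 2 was higher than library 1 in 33 of 35 members, with a median ratio of 1.20 between the higher and the lower value, against 1.05 to 1.07 in the other groups.

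Of 17 other genes of the pathway, 15 were tested. In double against copper deficiency 3 fell, where 6.40% of all genes fell, and 3 rose, where 39.4% rose. In iron deficiency against control 3 fell, where 6.85% of all genes fell, and 4 rose, where 27.2% rose, so that the rises were no more frequent than among all genes. UPM1, the methyltransferase that leads to siroheme, had 26.2 and 24.5 FPKM in double deficiency, 19.9 and 21.4 FPKM in iron deficiency, 42.9 and 39.3 FPKM in copper deficiency and 45.4 and 48.6 FPKM in controls. It fell in both (-0.68 ± 0.10, adjusted p = 0.00246, and -1.15 ± 0.10, 0.000673). SIRB, which inserts iron at the end of that branch, had 43.3 and 41.0 FPKM in double deficiency, 33.9 and 37.3 FPKM in iron deficiency, 28.3 and 31.8 FPKM in copper deficiency and 29.6 and 28.5 FPKM in controls, and rose in double against copper deficiency (0.47 ± 0.10, 0.00972), a call not kept under median-ratio or quantile scaling. SIRB was not called in iron deficiency against control (0.28 ± 0.10, 0.0681), where its sign turned under median-ratio scaling. HCAR, which returns chlorophyll b towards chlorophyll a, fell in both (-0.58 ± 0.12, 0.0111, and -0.79 ± 0.12, 0.00556), as did CPP1, a chaperone-like protein of the oxidoreductases (-0.34 ± 0.09, 0.0242, and -0.49 ± 0.09, 0.00904). The genes with a rise in iron deficiency against control were GUN1, a plastid protein of retrograde signalling (0.90 ± 0.13, 0.00478), the photoreceptor genes PHYB (0.71 ± 0.12, 0.00677) and PHYA (0.47 ± 0.12, 0.0308), and AT4G17840, annotated as a CAAX protease self-immunity protein (0.55 ± 0.10, 0.00861). GUN1 and PHYA were not called in double against copper deficiency, where their sign turned between scalings, while PHYB (0.55 ± 0.12, 0.0116) and AT4G17840 (0.36 ± 0.10, 0.0262) rose there. With median-ratio scaling the rise of PHYA, both rises of AT4G17840 and that of PHYB in double against copper deficiency were not kept, and with scaling to nuclear coding transcripts the fall of CPP1 in double against copper deficiency was not kept.

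Removal of copper gave no called member, with or without iron. The copper label checks FSD1, CSD2 and COPT2 were not called in these comparisons either. The lack of calls thus does not show that the members were unaffected by copper removal. In double against iron deficiency 0 of 35 fell, where 0.198% of all genes fell, and 0 rose, where 0.939% rose, with 6 members at an unadjusted p under 0.05. In copper deficiency against control 0 fell, where 0.0730% of all genes fell, and 0 rose, where 0.110% rose, with 1 member at an unadjusted p under 0.05. The only call under another setting was CHLH, which fell in double against iron deficiency under quantile scaling (adjusted p = 0.0399, against 0.180 unscaled). Over all genes, double against iron deficiency gave 38 falls and 180 rises unscaled, 67 and 99 with median-ratio scaling, and 111 and 130 with quantile scaling. The member nearest to a call was HO3, higher in both double-deficient libraries than in both iron-deficient ones (0.43 ± 0.09, 0.0845, 95% interval 0.21 to 0.65), and its difference between copper deficiency and control was 0.32 ± 0.09 (0.946, 0.10 to 0.54). The largest differences in double against iron deficiency were those of HEMA1 (0.63 ± 0.23, 0.202, 0.07 to 1.18) and HEMA2 (0.46 ± 0.21, 0.279, -0.04 to 0.96). In copper deficiency against control they were those of PORA (0.41 ± 0.22, 0.946, -0.12 to 0.94) and CHLI2 (0.33 ± 0.16, 0.946, -0.04 to 0.71). The copper transporter gene COPT2, a label check, had 10.4 and 12.7 FPKM in double deficiency against 5.43 and 8.71 FPKM in iron deficiency, and 5.11 and 6.22 FPKM in copper deficiency against 4.55 and 2.48 FPKM in controls, and was called in neither (adjusted p = 0.269 and 0.946).

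**Figure D5:**
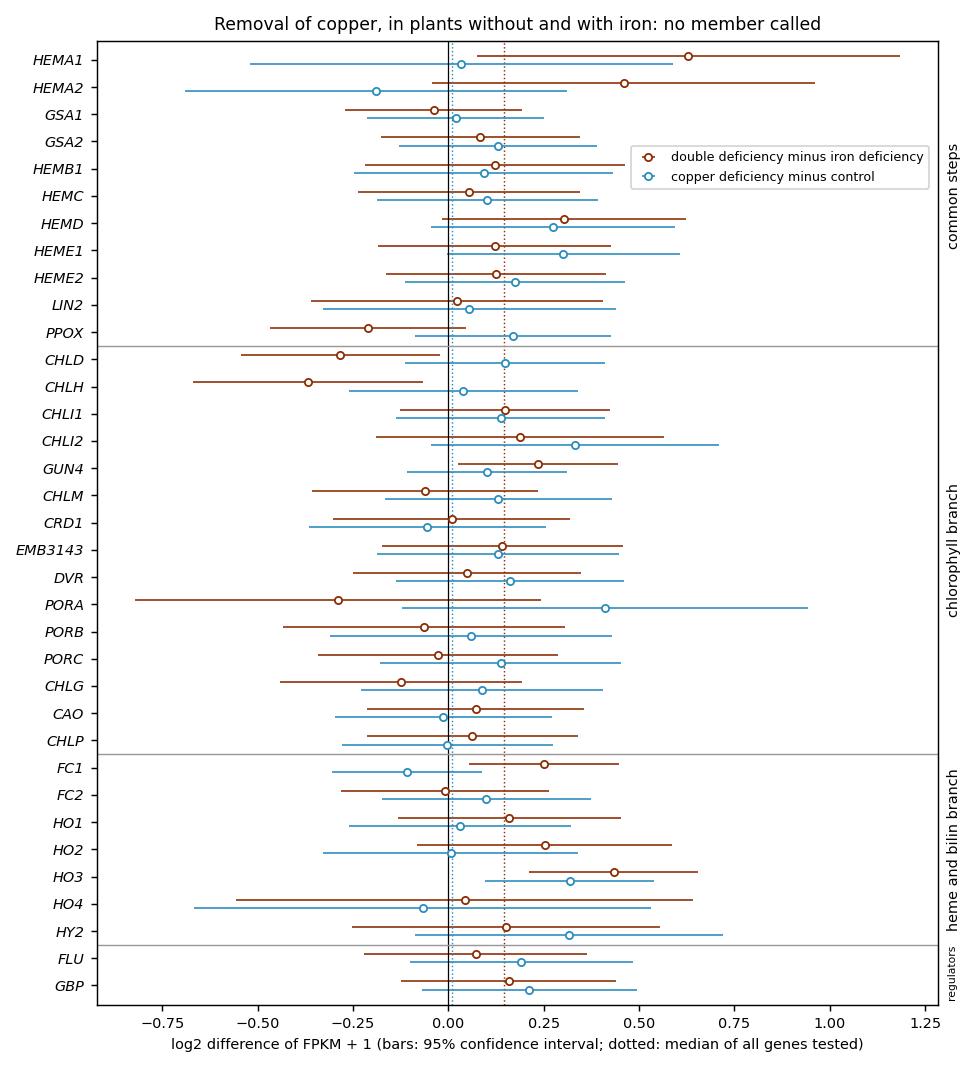
Log2 difference of FPKM + 1 (horizontal axis, points with 95% intervals) on removal of copper for the 35 tested members, in iron-starved plants (dark, upper) and iron-supplied plants (light, lower), with dotted lines at the medians of all genes. No member passed the threshold, and the widest intervals belong to HEMA1, HEMA2, PORA and HO4.

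The interaction asks whether removal of iron acted differently in copper-starved and in copper-supplied plants. No member was called: 0 of 35 lay lower, where 0.193% of all genes did, and 0 higher, where 0.396% did, with 3 members (PPOX, CHLD and FC1) at an unadjusted p under 0.05. The largest terms were those of PORA (-0.70 ± 0.31, adjusted p = 0.394, 95% interval -1.45 to 0.05), HEMA2 (0.65 ± 0.29, 0.402, -0.06 to 1.36) and HEMA1 (0.60 ± 0.33, 0.477, -0.19 to 1.38). The median over the tested members was -0.05, against 0.14 for all genes. The calls of PPOX, CHLD, CHLG and HO2 in double against copper deficiency alone are thus not shown to differ from iron deficiency against control.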

How the data were processed

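RNA sequencing of 8 rosette libraries was used as deposited: 1 FPKM value per gene and library, computed by the authors with Cufflinks, with a lower and an upper bound, per the file headers. Trimmomatic, TopHat2 2.1.1 and Cuffdiff are also named in the submitters' processing notes, and no source used here names the genome build. Of the 38093 gene entries, 99.2% were found in RefSeq TAIR10.1, of which 99.9% had identical start and end. No source used here gives read totals, and depth is therefore stated relative to the deepest library.

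Genes reaching 1 FPKM in 2 or more of the 8 libraries (19170) were fitted as log2(FPKM + 1) with limma 3.58.1 (trend) in R 4.3.3, with 4 groups in 1 model and no scaling between libraries. The pseudocount understates changes of low genes. P-values were adjusted by the Benjamini-Hochberg method over all genes. The procedure was tested on simulated data. Members and lists were chosen with earlier results of these data known. Library values are given for the 12 members with the largest iron effect, members of gene families, the 3 largest copper and interaction terms, and FLU, GBP and GUN4, and other members by mean and SD. Alternatives were another pseudocount, other filters, 3 scalings, a fit without trend, a fit of the compared groups only, a replicate block and leaving out each library, with 1 added after the data were seen that kept only nuclear protein-coding genes with no value of 0.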

Additional observations from a re-analysis of the deposited data

Results flagged for a closer look

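Of the members, 4 had both libraries of a group move one way with the other metal absent and the opposite way with it present. On removal of copper, PPOX, CHLD and PORA were lower in both double-deficient libraries than in both iron-deficient ones, and higher in both copper-deficient libraries than in both controls. Their interaction terms were -0.38 for PPOX (limma adjusted p = 0.356), -0.43 for CHLD (0.315) and -0.70 for PORA (0.394). FC1 did the reverse, with a term of 0.36 (0.279), both for removal of copper and for removal of iron, which share that term. None passed the threshold, so these differences are not established by the test. Groups of 2 libraries are too small for a check of outlying libraries.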

How the results depend on the processing

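In the main fit 15 members fell and 3 rose in double deficiency against control. In double against copper deficiency 20 fell and 2 rose, and in iron deficiency against control 17 fell and 1 rose. Each of these counts of falls includes PORA and HO4, which passed the filter only through libraries with iron. The medians relative to all genes were -0.77, -0.83 and -0.66 in that order of comparisons. Without a filter on low values these medians were -0.45, -0.52 and -0.44, that of double against iron deficiency was 0.037 (-0.07 in the main fit) and that of the interaction -0.10 (-0.19). With median-ratio scaling 28 fell and 1 rose in double deficiency against control, 1 rose in double against copper deficiency, and 29 fell in iron deficiency against control. HO1 in double deficiency against control then turned to -0.074, the only called gene that changed direction in any alternative tried. With quantile scaling 28 fell and 1 rose in double deficiency against control (median -0.58), 1 rose in double against copper deficiency (median -0.74), 1 fell in double against iron deficiency, and the median in iron deficiency against control was -0.47. Scaling to nuclear coding transcripts gave 4 rises in double against copper deficiency and 4 in iron deficiency against control. Iron deficiency against control had 2 rises with a filter of 5 FPKM and 2 when only nuclear protein-coding genes above 0 throughout were tested. The cause was not tested in any of these cases.

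Leaving out 1 library at a time, where a group of 1 is assumed to vary like the others, gave 8 to 17 falls and 1 to 3 rises in double deficiency against control. It gave 13 to 21 falls and 1 to 2 rises in double against copper deficiency (median -0.95 to -0.79), and 9 to 17 falls and 1 to 2 rises in iron deficiency against control (median -0.75 to -0.58). The median was -0.13 to 0.015 in double against iron deficiency and -0.28 to -0.10 in the interaction. No member was called in copper deficiency against control or in the interaction in any alternative run. Same-numbered libraries did not deviate together (correlations -0.0394 to 0.0238), and the numbers were not taken to pair the libraries. Such correlations cannot exclude a pairing, since the spread of single libraries could hide it. With the replicate number as a block, falls numbered 18 in double deficiency against control, 20 in double against copper deficiency and 19 in iron deficiency against control. Depth limits the lowest members most, PORA and HO4, whose levels without iron were under 1 FPKM.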

Other observations

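The members form 2 pairs of direct neighbours on the minus strand, with no gene annotated between them. HEMA1 and HO4 lie 1355 bases apart on chromosome 1. HEMD and HO2 lie 786 bases apart on chromosome 2. HEMD had 23.8 and 28.6 FPKM in double deficiency against 31.9 and 38.0 FPKM in copper deficiency and fell. HO2 had 36.5 and 34.1 FPKM in double deficiency against 19.2 and 24.8 FPKM in copper deficiency and rose. HEMD lost its call in this comparison with scaling to nuclear coding transcripts, and HO2 with median-ratio and quantile scaling. In iron deficiency against control HEMD fell (limma adjusted p = 0.0474) and HO2 was not called (0.0567).

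Among other genes of the pathway, HEMA3, the least expressed glutamyl-tRNA reductase gene, had 1.82 and 1.25 FPKM in double deficiency, 0.591 and 1.36 FPKM in iron deficiency, 0.566 and 0.0917 FPKM in copper deficiency and 0.631 and 0.235 FPKM in controls. HEMA3 passed the filter of 1 FPKM only through libraries without iron. It was not called in double against copper deficiency (limma adjusted p = 0.0572) or in iron deficiency against control (0.334).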
